A study of Mus musculus with 16 samples.

Results

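The genes described here are 10 identity genes of resident Kupffer cells, the macrophages that live in the blood sinusoids of the liver. They are the surface and secreted proteins Clec4f, Cd5l, Vsig4, Timd4, Marco, Cd163 and Clec1b and the transcription regulators Id3, Spic and Nr1h3. They were chosen by name as markers and regulators of the cell type and are 10 of the 19938 genes that the array reports with a single symbol. The measured value in that choice was the row mean over all 16 arrays, by which the brightest row of a gene was selected, and each of these genes had 1 such row, so that step left none out. The list was drawn up with group differences of these data already known, so the number of its genes past a threshold describes the list and is not independent evidence about Kupffer cells.

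Kupffer cells are seeded before birth and renew themselves in place. Sinusoidal endothelium, stellate cells and hepatocytes hold them there with colony-stimulating factors, with the Notch ligand Dll4 and with bone morphogenetic proteins, and these signals switch on the regulators LXR-alpha (encoded by Nr1h3), Id3 and SpiC. The cells clear bacteria, complement-coated particles, dying cells and old red cells from the blood, and many of their marker genes encode the receptors for that work.

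Liver RNA of 16 mouse samples on the C57BL/6 background was measured, 7 from Pdgf-c transgenic and 9 from wildtype mice, with 1 Affymetrix Mouse Gene 1.0 ST array each. Pdgf-c is a growth factor that acts on fibroblasts and stellate cells, and the series asked whether stromal cells contribute to liver tumours in these mice. The labels call the samples stromal cells, but the protocol extracts total hepatic RNA, and the hepatocyte gene Alb was among the brightest rows, at 13.5 in the transgenic and 13.6 in the wildtype group (mean log2 intensity). The promoter that drives the transgene, the age of the mice and whether every sample came from its own animal are not given in the sources used here. The p-values therefore measure the spread between these samples, which may be technical. In RNA of whole liver, fewer Kupffer cells and less RNA of a gene per Kupffer cell cannot be told apart. Column medians lay between 5.2 and 5.36, and the number of arrays limits the precision.

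Of the 10 genes, 8 were lower in the transgenic livers and 2, Id3 and Spic, did not pass the test. None was higher. The threshold was a Benjamini-Hochberg adjusted p of 0.05 in a limma fit over all rows, which called 18.9% of the 35557 rows and 23.2% of the genes, 11.1% lower and 12.1% higher. All transgenic arrays lay below all wildtype arrays in 7 of the 10 genes, against 3.65% of all genes. A called fall of at least 1.5-fold was found for 7 of the 10 and for 0.868% of all genes. A called fall of at least 4-fold was found for 0.0451% of all genes (9 genes), and 4 of those 9 were Cd5l, Cd163, Clec4f and Clec1b. The median difference of the 10 genes was -1.39 on the log2 scale, and that of all genes was -0.04. Levels below are log2 intensities and differences are transgenic minus wildtype on the same scale, each with its standard error from limma unless another is named.

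**Figure D1:**
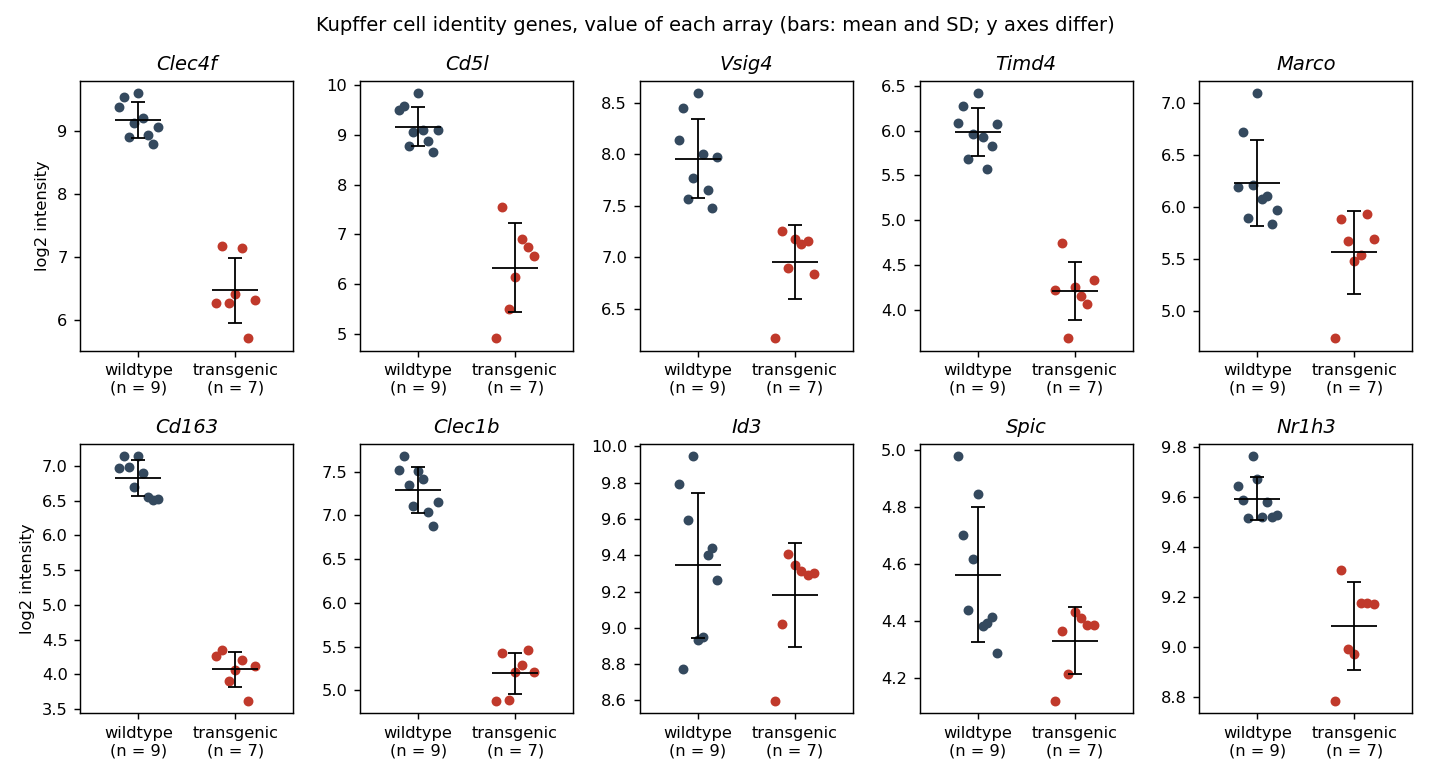
Log2 intensity of the 10 Kupffer cell identity genes in each array, 9 wildtype (dark) and 7 transgenic (red); black bars give the mean and SD, and each panel has its own y axis. The groups are apart in Clec4f, Cd5l, Vsig4, Timd4, Cd163, Clec1b and Nr1h3 and overlap in Marco, Id3 and Spic.

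Because most of these genes were lower together, the stretch before the RefSeq start of each gene was searched for short motifs of regulators known from macrophages and from the Kupffer cell niche. All 10 genes had an entry in the RefSeq promoter table of build GRCm38.p6, Nr1h3 with 2 overlapping windows, which gave 11 windows of 250 bases. The purine box GAGGAA, bound by the ETS factors PU.1 and SpiC, was present on either strand in 4 of the 11 windows (Cd5l, Id3, Marco and Vsig4) and in 23.3% of the 32851 windows searched. The longer form GAGGAAGT, which contains the purine box, was in 0 of the 11 and in 2.44% of all. The core TGGGAA of the Notch effector RBPJ was in 4 of the 11 (Clec4f, Marco and both overlapping Nr1h3 windows) and in 21.6% of all. The MAF element TGCTGAC was in 1 of the 11 (Timd4) and in 3.81% of all. A pair of Smad boxes, CAGACAGAC, was in 0 of the 11 and in 0.600% of all, and the DR4 element of LXR in 0 of the 11 and in 0.0152% of all. Clec4f, Vsig4, Marco and Timd4 are shown, since they hold the RBPJ, purine and MAF matches and span large and small falls. Cd163, one of the genes with the largest falls, is shown as a stretch with no match. Capitals mark the matches, and each sequence runs 5′ to 3′ on the strand of its gene and ends at the base before the start.
Clec4f, chr6:83656117-83656366, minus strand: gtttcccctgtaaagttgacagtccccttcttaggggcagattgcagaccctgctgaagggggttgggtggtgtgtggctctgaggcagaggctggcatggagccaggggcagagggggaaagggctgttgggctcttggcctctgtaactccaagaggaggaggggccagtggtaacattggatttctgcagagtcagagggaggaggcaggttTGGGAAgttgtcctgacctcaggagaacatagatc
Vsig4, chrX:96293439-96293688, minus strand: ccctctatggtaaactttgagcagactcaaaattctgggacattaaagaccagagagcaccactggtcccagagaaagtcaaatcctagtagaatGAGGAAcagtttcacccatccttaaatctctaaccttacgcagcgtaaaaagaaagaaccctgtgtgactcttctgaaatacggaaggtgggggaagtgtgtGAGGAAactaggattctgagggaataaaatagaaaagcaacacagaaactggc
Marco, chr1:120505025-120505274, minus strand: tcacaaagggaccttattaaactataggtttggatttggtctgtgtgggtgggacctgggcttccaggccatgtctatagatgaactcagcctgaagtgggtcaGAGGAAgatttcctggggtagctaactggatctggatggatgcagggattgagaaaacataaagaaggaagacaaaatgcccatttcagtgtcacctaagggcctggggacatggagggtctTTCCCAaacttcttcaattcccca
Timd4, chr11:46810549-46810798, plus strand: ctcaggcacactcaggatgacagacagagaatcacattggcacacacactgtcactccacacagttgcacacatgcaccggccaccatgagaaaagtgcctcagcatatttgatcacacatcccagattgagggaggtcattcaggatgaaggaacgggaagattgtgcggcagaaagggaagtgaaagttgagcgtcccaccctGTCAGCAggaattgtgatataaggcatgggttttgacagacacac
Cd163, chr6:124304401-124304650, plus strand: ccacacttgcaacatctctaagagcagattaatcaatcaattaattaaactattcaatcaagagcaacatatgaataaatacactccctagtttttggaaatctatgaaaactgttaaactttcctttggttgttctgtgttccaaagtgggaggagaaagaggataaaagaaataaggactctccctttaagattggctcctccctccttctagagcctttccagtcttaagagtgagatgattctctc

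Clec4f is a C-type lectin of the cell surface and, in mouse, the marker most restricted to Kupffer cells. Its row ran from 8.80 through a median of 9.13 to 9.60 in the wildtype arrays and from 5.71 through 6.32 to 7.17 in the transgenic arrays. The highest transgenic array stayed below the lowest wildtype array. The difference was -2.70 ± 0.184, a 6.50-fold lower level (limma adjusted p = 6.07e-09). Its promoter stretch, shown above, carries a single RBPJ core at position -35 from the start.

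Clec1b, a lectin receptor for podoplanin that is also made by platelets, ran from 6.87 through 7.34 to 7.68 in wildtype and from 4.88 through 5.21 to 5.46 in transgenic livers. The groups were apart, at a difference of -2.10 ± 0.119 (limma adjusted p = 5.23e-10). Of 5 measured platelet and megakaryocyte genes, 2 rose (Pf4 by 2.32 ± 0.0807 and Ppbp by 1.10 ± 0.164). In that list 1, Itga2b, fell by 0.18 ± 0.0601, a call that was lost under several alternatives. Over all genes 12.1% rose and 11.1% fell. Pdpn, the gene of podoplanin itself, differed by 0.10 ± 0.0759 (limma adjusted p = 0.439).

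Cd5l, Cd163 and Marco belong to the scavenger receptor cysteine-rich family. Cd5l encodes a secreted inhibitor of macrophage death. It ran from 8.65 through 9.09 to 9.83 in wildtype and from 4.92 through 6.56 to 7.56 in transgenic arrays, the widest spread of the 10 genes (SD 0.891 over the 7 transgenic arrays). It fell by 2.83 ± 0.296 (limma adjusted p = 1.57e-06), and the groups did not overlap.

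Cd163, the receptor that takes up haemoglobin bound to haptoglobin, ran from 6.51 through 6.90 to 7.14 in wildtype and from 3.61 through 4.11 to 4.35 in transgenic livers. All transgenic arrays were below all wildtype arrays. Its difference of -2.76 ± 0.121 (6.75-fold lower) had the smallest adjusted p of the 10 genes, 2.08e-11 by limma. The transgenic mean of 4.07 lies near the dim end of the array, where the 20th percentile of all values is 3.45.

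Marco, a receptor for bacteria and particles, ran from 5.84 through 6.10 to 7.09 in wildtype and from 4.74 through 5.67 to 5.93 in transgenic arrays. The groups overlapped, and transgenic array 1 lay well below the other six. Marco fell by 0.67 ± 0.187 (limma adjusted p = 0.0163), and by 0.53 ± 0.165 without that array (limma adjusted p = 0.0316). Its relative Msr1, the class A scavenger receptor, fell by 0.36 ± 0.0707, and Scara3, Scara5, Cd5, Cd6 and Dmbt1 did not pass the test.

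Vsig4 encodes the complement receptor that lets Kupffer cells catch coated bacteria from the blood. It ran from 7.48 through 7.97 to 8.59 in wildtype and from 6.22 through 7.13 to 7.26 in transgenic livers, again without overlap. The difference was -1.0 ± 0.172 (limma adjusted p = 3.21e-04), and -0.88 ± 0.153 without transgenic array 1, its lowest array. Both purine boxes of its promoter stretch are shown above.

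Timd4, a receptor for phosphatidylserine on dying cells that marks long-lived resident macrophages, ran from 5.57 through 5.96 to 6.42 in wildtype and from 3.68 through 4.22 to 4.75 in transgenic arrays. The groups were apart, at -1.77 ± 0.137, a 3.41-fold lower level (limma adjusted p = 3.40e-08). The transgenic mean of 4.21 lies near the dim end of the array, as does that of Cd163. Mertk, another receptor of dying cells, differed by 0.03 ± 0.0692 (limma adjusted p = 0.820). Gas6 and Mfge8, secreted proteins that bridge dying cells to phagocytes, rose by 1.97 ± 0.0802 and 1.19 ± 0.0991. Among other genes of the TIM family, Havcr2 rose by 0.79 ± 0.0769 and Timd2 fell by 0.46 ± 0.053.

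Of the 3 regulators, 1 fell. Nr1h3 encodes LXR-alpha, a sterol-sensing nuclear receptor that Kupffer cells need to keep their identity and that hepatocytes also make. It ran from 9.52 through 9.58 to 9.76 in wildtype and from 8.78 through 9.17 to 9.31 in transgenic livers. The groups did not overlap, and the difference was -0.51 ± 0.0642 (limma adjusted p = 1.30e-05), a 1.42-fold lower level.

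Id3, an inhibitor of helix-loop-helix factors that is also made by endothelium and other liver cells, ran from 8.77 through 9.40 to 9.95 in wildtype and from 8.60 through 9.30 to 9.41 in transgenic arrays. The transgenic values lay almost wholly within the wildtype range. The difference was -0.16 ± 0.163 (95% interval -0.50 to 0.18, limma adjusted p = 0.561). Its relatives Id1, Id2 and Id4 did not pass the test either, at -0.10 ± 0.162, -0.39 ± 0.136 and -0.07 ± 0.0762.

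Spic, an ETS factor of macrophages that recycle iron, was the dimmest of the 3 regulators, with 4.29 to 4.98 and a median of 4.44 in wildtype and 4.12 to 4.43 with a median of 4.39 in transgenic livers. The groups overlapped. The difference was -0.23 ± 0.0982 (95% interval -0.44 to -0.03, limma adjusted p = 0.117). Its wildtype mean lay at the 37.9th percentile of all rows. Its relative Spi1, the gene of PU.1, rose by 0.37 ± 0.0989.

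**Figure D2:**
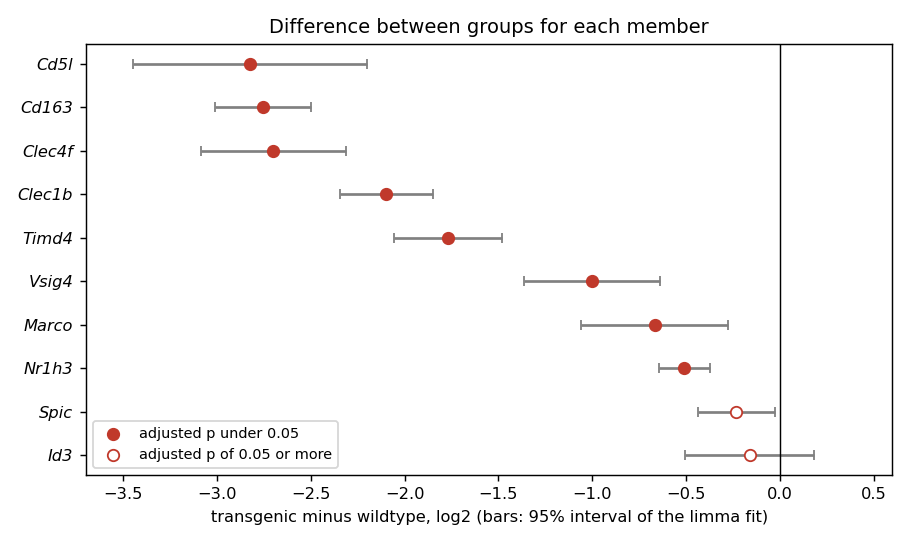
Difference between groups (transgenic minus wildtype, log2) for each of the 10 genes with the 95% interval of the limma fit, ordered by size; filled points passed an adjusted p of 0.05. The differences run from -2.83 (Cd5l) to -0.16 (Id3), and only the interval of Id3 crosses 0.

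The 10 differences were unequal. Each was set against that of Clec4f by taking the gene minus Clec4f within every array and comparing the groups with an exact two-sided permutation test, adjusted over the 9 genes. The standard errors in this paragraph come from the separate variances of the groups, not from limma. For Cd5l and Cd163 the change relative to Clec4f was -0.12 ± 0.299 and -0.05 ± 0.147 (adjusted p = 0.699 for both, exact test), and with these errors the order of the 3 genes is not resolved. Clec1b and Timd4 fell less than Clec4f, by 0.60 ± 0.205 and 0.93 ± 0.173 log2 units (adjusted p = 0.00112 and 2.62e-04, exact permutation test). The gap to Clec4f was 1.70 ± 0.207 for Vsig4, 2.03 ± 0.252 for Marco, 2.19 ± 0.2 for Nr1h3, 2.47 ± 0.201 for Spic and 2.54 ± 0.304 for Id3. These 5 had the smallest p the exact permutation test can give here, 8.74e-05, and an adjusted p of 1.57e-04. The list was made with group differences already known, so these p-values describe the gaps and are not independent evidence of unequal falls. Spic, at a wildtype mean of 4.56 where the 20th percentile of all values is 3.45, could hardly show a fall as large as that of Clec4f. Rows of an array respond to RNA to different degrees, and dim rows are compressed, so unequal differences between rows need not be unequal changes in RNA.

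Arrays of the same group also differed from each other in these genes, and that variation was not used to choose them. Wildtype array 5 was among the 3 highest wildtype arrays in 9 of the 10 genes, and arrays 1 and 2 in 8 each. Array 8 was among the 3 lowest in 8 genes and array 7 in 7. Within the 9 wildtype arrays, Pearson's r between the 7 receptor and secreted genes ran from 0.588 to 0.984 over their 21 pairs, with a median of 0.853. All pairs share the same arrays, so part of this can come from any property of an array that moves many rows.

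Each gene was then related to the mean of the other 9, standardised, within each group (20 relations, permutation p adjusted over them). In the wildtype arrays 8 of the 10 relations passed by Pearson's r and 6 by Spearman's rho. How many genes outside the list would pass the same test was not examined in either group. The counts therefore do not show a trait particular to these genes. Clec4f followed the others most closely (r = 0.953, adjusted permutation p = 0.00229; rho = 0.917, adjusted permutation p = 0.0262), and r was 0.923 without the 2 outermost arrays. Cd5l gave r = 0.947 and rho = 0.883 (adjusted permutation p = 0.00229 and 0.0301; r = 0.876 without the 2 outermost arrays). Nr1h3 gave r = 0.527 and rho = 0.733 (adjusted permutation p = 0.192 and 0.0778). Id3 ran the other way, at r = -0.385 and rho = -0.350 (adjusted permutation p = 0.336 and 0.422), with wildtype arrays 2 and 5 at its low end; without the 2 outermost arrays r was 0.381.

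Within the 7 transgenic arrays fewer relations passed by Pearson's r whichever of these arrays was left out. By Pearson's r 5 of 10 relations passed and by Spearman's rho 1, that of Cd5l (r = 0.965, adjusted permutation p = 0.00694; rho = 0.893, adjusted permutation p = 0.0351; r = 0.877 without the 2 outermost arrays). Without transgenic array 1 the count by Pearson's r was 1 instead of 5, and it was 1 without array 5 and 2 without array 2 or array 3. It was 3 without array 6 or array 7 and 4 without array 4. Fewer arrays also give the test less power, so the lower counts need not reflect particular arrays. Array 1 was among the 3 lowest transgenic arrays in 8 genes and array 3 in 8, while array 2 was among the 3 highest in 8. Cd163 gave r = 0.00313 and rho = 0.250 (adjusted permutation p = 0.993 and 0.626; r = 0.564 without the 2 outermost arrays), and transgenic array 6 was the lowest for Cd163 and Clec4f but the highest for Marco and Clec1b. Whether the relations differ between the groups was not tested.

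**Figure D3:**
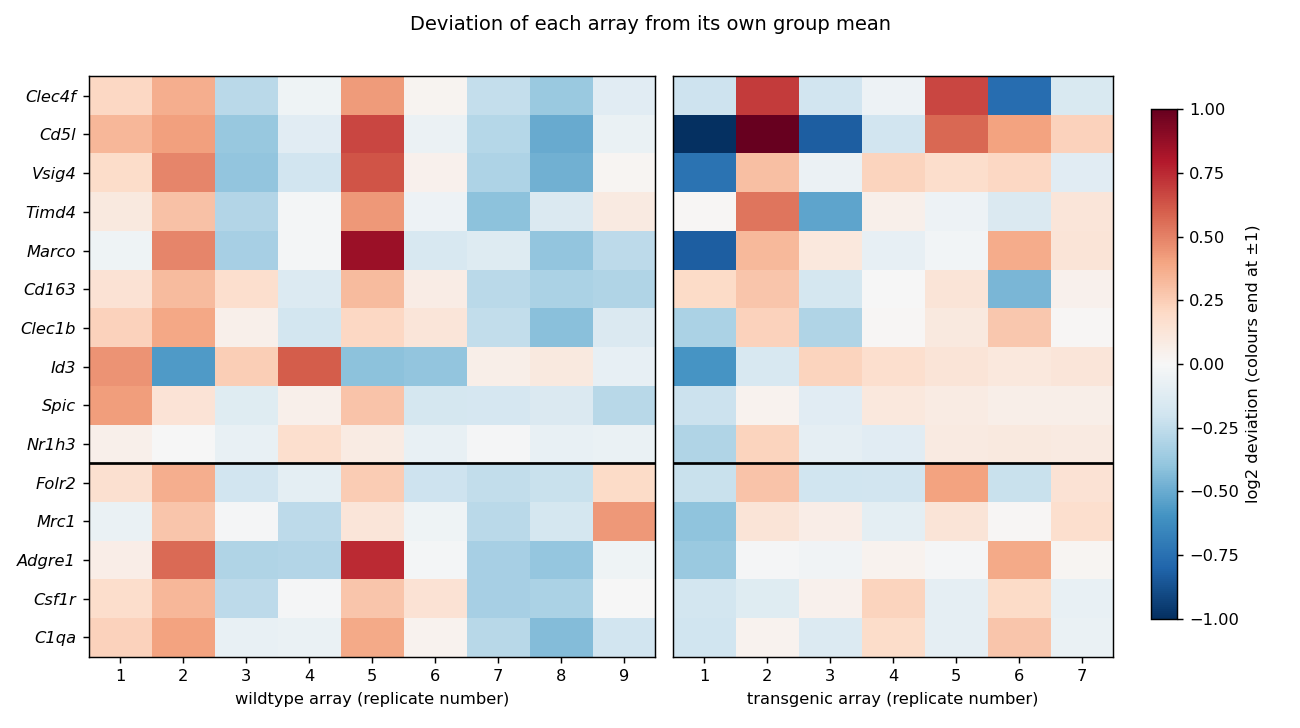
Deviation of each array from the mean of its own group (log2, red above and blue below, colours end at ±1) for the 10 genes and, below the black line, for 5 other macrophage genes; columns are the arrays by replicate number. Wildtype arrays 1, 2 and 5 are red and arrays 7 and 8 blue in most rows, while transgenic array 6 is blue in Clec4f and Cd163 and red in Marco and Clec1b.

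The wider set of genes known from Kupffer cells was mixed. Of 18 measured, 6 fell and 4 rose, where 11.1% of all genes fell and 12.1% rose, and the median difference was -0.16. Folr2, a folate receptor of resident macrophages, fell most. It ran from 6.62 through 6.76 to 7.23 in wildtype and from 5.10 through 5.13 to 5.73 in transgenic arrays, apart in every array, at -1.54 ± 0.12 (limma adjusted p = 3.54e-08). It was also the gene most like Clec4f over the 16 arrays (Pearson's r = 0.984, of which the group difference is a large part) and among the 5 most like it after group means were removed (r = 0.807). Apom, Avpr2, Gpr174 and Sgsm3 were the others by the latter measure, at 0.785 to 0.851. These 5 were picked as the highest of all genes outside the list, and how high such a pick runs by chance was not tested. Over the 16 arrays as they are, Cyp2d40, Ces1d, Creb3l3 and Clec4g followed Folr2, at 0.967 to 0.976.

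Adgre4, an adhesion receptor of macrophages, fell by 0.87 ± 0.105, the mannose receptor gene Mrc1 by 0.82 ± 0.105, the iron exporter gene Slc40a1 by 0.53 ± 0.112 and the potassium channel gene Kcna2 by 0.25 ± 0.0701. The 4 that rose were Cd207 (langerin) at 1.24 ± 0.0942, the complement gene C6 at 0.76 ± 0.11, Slc16a9 at 0.63 ± 0.0664 and Itga9 at 0.62 ± 0.0791. C6 is also made by hepatocytes and Itga9 by other liver cells. Of 9 genes of red cell clearance and iron recycling, 2 fell (Slc40a1 and Hamp, the iron hormone of hepatocytes, by 0.54 ± 0.101). In the same list 1, Lrp1, rose by 0.36 ± 0.0708. Over all genes 11.1% fell and 12.1% rose. Hmox1, the haem-degrading enzyme, differed by -0.15 ± 0.174 (limma adjusted p = 0.616), and Hp, the gene of haptoglobin, by -0.04 ± 0.0409 (limma adjusted p = 0.559).

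Genes shared by all macrophages went mostly the other way. Of 13 measured, 10 rose and none fell, with a median of 0.60, where 12.1% of all genes rose and 11.1% fell. In the fit with the replicate number as a block, which lacked wildtype arrays 8 and 9, the number that rose was 7. The first complement component genes C1qa, C1qb and C1qc rose by 0.60 ± 0.115, 0.74 ± 0.135 and 0.65 ± 0.127, Csf1r, the receptor that macrophages need to survive, by 0.38 ± 0.102, and the lysosomal genes Ctss and Lyz2 by 1.59 ± 0.114 and 1.73 ± 0.17. Adgre1, which encodes the F4/80 antigen, ran from 6.93 through 7.27 to 8.06 in wildtype and from 7.20 through 7.57 to 7.95 in transgenic livers. The groups overlapped almost wholly (0.26 ± 0.156, limma adjusted p = 0.284). Taken per array relative to Adgre1, Clec4f changed by -2.96 log2 units, with an SD of 0.627 among transgenic and 0.174 among wildtype arrays.

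Markers of monocytes and of macrophages that derive from them rose in 9 of 10 measured genes and fell in none, with a median of 0.90. Over all genes 12.1% rose and 11.1% fell, the shares to set beside each count in this paragraph. The summed level of that list, as its mean log2 intensity per array, was 6.13 to 6.60 in transgenic and 5.09 to 5.31 in wildtype arrays. Ccr2, the chemokine receptor of blood monocytes, ran from 3.25 to 4.09 in wildtype and from 5.30 to 6.01 in transgenic livers and rose by 2.0 ± 0.121. Neutrophil genes rose in 7 of 7, stellate cell and fibroblast genes in 8 of 9, T, B and NK cell genes in 4 of 8 and dendritic cell genes in 3 of 7. The 1 remaining stellate cell and fibroblast gene fell, and none of the neutrophil, lymphocyte or dendritic cell genes did. Sinusoidal endothelial genes fell in 8 of 10 and 1 rose, with a mean level per array of 6.38 to 6.72 in transgenic and 7.44 to 7.79 in wildtype. Hepatocyte genes fell in 3 of 8, and 1, Apoa1, was called higher at 0.07 ± 0.0215, a call lost under several alternatives, among them median centring and the replicate block. These lists were read in the same arrays as the Kupffer cell genes, and their part in the differences above was not tested.

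Signals of the niche were measured in the same arrays. Among 10 ligands, 5 fell and 3 rose, where 11.1% of all genes fell and 12.1% rose. Bmp2 ran from 6.64 to 7.21 in wildtype and from 5.54 to 6.21 in transgenic livers and fell by 1.03 ± 0.111, Bmp10 by 0.39 ± 0.106 and Bmp6 by 0.26 ± 0.0758. The Notch ligand Dll4 fell by 0.36 ± 0.0847 and Dll1 by 0.28 ± 0.0701, each with overlapping groups. In the other direction, Gdf2, which encodes BMP9, rose by 1.16 ± 0.128, the colony-stimulating factor Csf1 by 0.60 ± 0.0765 and Tgfb1 by 0.26 ± 0.0716. Il34, the second ligand of Csf1r, differed by -0.27 ± 0.0991 (limma adjusted p = 0.0637).

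Receptors and transducers of these signals passed the test in 7 of 11 genes, each time upwards, where 12.1% of all genes rose. Among them were Tgfbr2 at 0.76 ± 0.0753, Tgfbr1 at 0.59 ± 0.0762 and the Notch effector gene Rbpj at 0.38 ± 0.0686. The type I receptor of BMP9 and BMP10, Acvrl1, rose by 0.23 ± 0.0688, and Notch1, Smad1, Smad4 and Smad5 did not pass the test. Of 8 measured targets of Notch and BMP signalling 1 passed, Smad6 at 0.31 ± 0.0734, which is near the share of all genes that rose (12.1%). Hes1, a direct Notch target, differed by -0.24 ± 0.152 and Smad7 by 0.00373 ± 0.126 (limma adjusted p = 0.329 and 0.990).

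Of 10 measured partners and targets of LXR-alpha, 2 rose and 1 fell, near the shares over all genes (12.1% and 11.1%). Those that rose were the cholesterol exporter genes Abca1 at 0.43 ± 0.0593 and Abcg1 at 0.53 ± 0.0589, and in both the groups were apart. Srebf1, a lipogenic factor, fell by 0.28 ± 0.0927 (limma adjusted p = 0.0386), and that call was lost under several alternatives, including the fit without transgenic array 1. Mylip, Smpdl3a, Lpcat3, Arg2, Apoe and Pltp, targets of LXR, and the partner Rxra did not pass the test. All these genes are made by several liver cell types, so the values do not describe Kupffer cells alone.

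**Figure D4:**
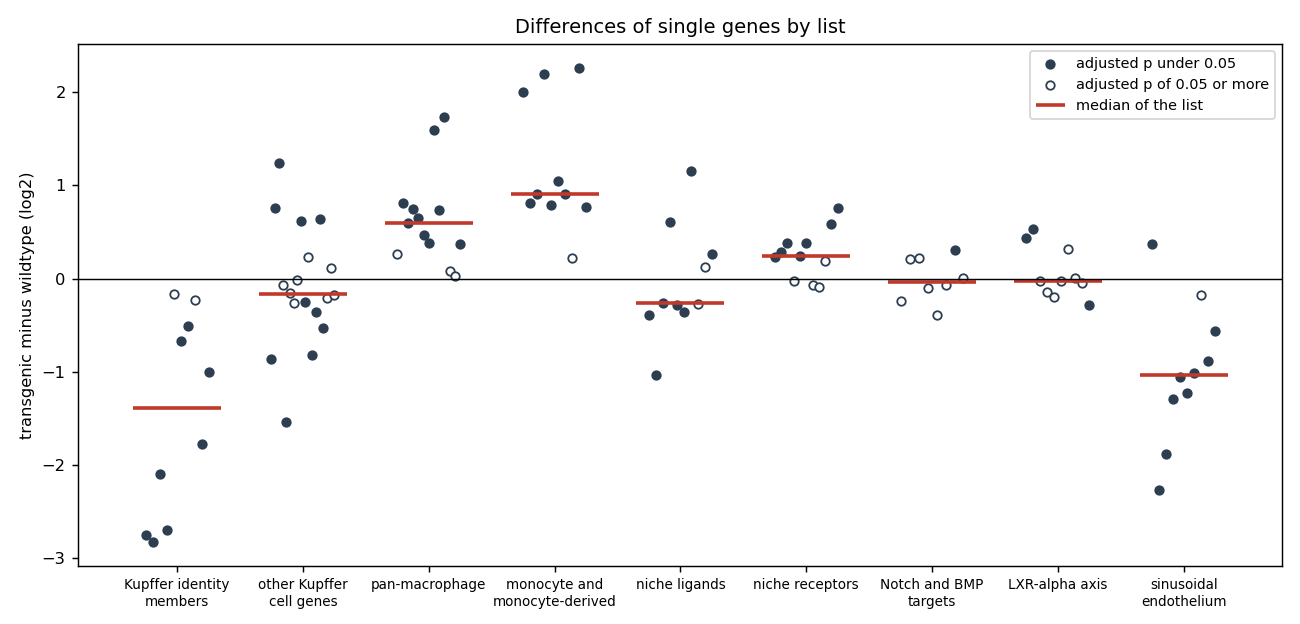
Difference between groups (transgenic minus wildtype, log2) of single genes in 9 lists; filled points passed an adjusted p of 0.05 and the red line is the median of the list. The Kupffer cell identity genes lie at or below -0.16, the pan-macrophage and monocyte lists have medians above 0, and the niche ligands on both sides.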

How the data were processed

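The deposited table holds log2 intensities, 1 value per row (transcript cluster) and array, which the authors made with GCRMA per the submitters' processing notes. GCRMA corrects background, normalizes between arrays and pulls dim rows towards a floor. Its version and the log base are not given in the sources used here; the base was read from the range of 0.710 to 14.7. Of 35557 rows, 21789 had 1 gene symbol in the platform annotation, 1621 had several and 12147 were not listed; Entrez identifiers of 21698 rows matched RefSeq names of GRCm38.p6. Symbols without such a row were not analysed here.

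All rows were fitted with limma 3.58.1 in R 4.3.3 (lmFit, eBayes with trend, 7 transgenic against 9 wildtype arrays) and p-values adjusted by Benjamini-Hochberg over all rows. The code was tested on simulated data. Permutation tests and plots used Python 3.11.15 and matplotlib 3.10.9.

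The members and gene lists were chosen with earlier results of these data known. Named genes were the members, genes of the niche, LXR, iron and ligand lists, the largest called differences of other lists, and the 5 most like Clec4f; further list genes were picked with their values in view. The purine box was added to the motifs after seeing the data. Over all rows, deviations from the group means correlated little between samples with the same replicate number (-0.0186 to 0.0859), so the main fit left them unpaired. Whether replicate numbers pair the samples in the 10 genes alone was not tested, and a fit with the number as a block is given below. Alternatives were other normalizations, filters, fits, a replicate block and leaving out arrays.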

Additional observations from a re-analysis of the deposited data

Results flagged for a closer look

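In 20 groups of arrays (10 genes in 2 groups), 2 values stood far from the rest of their group, both of them the lowest and both from transgenic array 1. Vsig4 was 6.22 there, with a gap to the next array of 0.601 of the group's range, and Marco was 4.74, with a gap of 0.624. By the construction of the rule chance flags about 1 in 20 such groups, a rate that was not measured in these data. Without that array both genes were still called lower, as given with each gene above.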

How the results depend on the processing

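Under all 27 alternatives each of the 8 lower genes that could be fitted was still called lower, 0 were called higher, and Id3 and Spic were not called; on rows above the median level Timd4 and Spic were not fitted and 7 of the remaining 8 were lower. In all, 5627 to 7561 rows were called, and 5929 to 6941 with 1 array left out. The lowest count came from the fit on the 21789 rows with 1 symbol. The fit on rows above the median level (6267 called) also covered fewer rows, so these counts are not shares of the same total. The adjusted p (limma) of Marco ran from 0.00556 to 0.0323 and that of Spic from 0.0518 to 0.206. The fit with the replicate number as a block left out wildtype arrays 8 and 9, whose numbers no transgenic array has. It thus differs from the main fit in its arrays as well as in the block. In that fit 5722 rows were called. Clec4f had an SE of 0.126 and an adjusted p (limma) of 1.27e-06, and Marco an adjusted p of 0.0168. No call of the 10 genes changed, and of the pan-macrophage genes 7 instead of 10 were called higher. Relative to Clec4f, 7 of 9 differences passed in each of 17 settings; the sign of Cd5l turned without transgenic array 1 (0.077) and that of Cd163 without transgenic array 2 (0.016) or 5 (0.036), none of them called; with 1 array left out they ran from -0.32 to 0.077 and from -0.12 to 0.036. The count of relations within groups was 13, 12 after quantile normalization and 7 to 14 with 1 array left out, lowest without transgenic array 1 or 5. Among the lists, counts over 1.5 times apart arose on rows above the median level, where fewer genes were fitted (monocyte genes 4 of 5 higher, neutrophil genes 3 of 3), and in calls of 1 or 2 genes. The cause was not tested.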

Other observations

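Another pattern was noticed in these values and is given as a description with no test, since the same arrays showed it first. Of the genes shared by all macrophages, 3 were set against Clec4f within each group, and the others of that list were not examined. Within the 9 wildtype arrays Pearson's r was 0.960 with C1qa, 0.952 with Csf1r and 0.934 with Adgre1, and Spearman's rho was 0.933, 0.917 and 0.967. Without the 2 arrays farthest from the median of each, r was 0.909, 0.952 and 0.856. Within the 7 transgenic arrays r was -0.327, -0.538 and -0.329 and rho 0.071, -0.214 and -0.036, and r without the 2 outermost arrays was 0.696, -0.238 and -0.251. The values of each group share the same arrays, and the difference between the groups was not tested.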
